A study of Mus musculus with 3 samples.

Results

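The genes described here are Cd200 and its 4 receptor genes Cd200r1, Cd200r2, Cd200r3 and Cd200r4, 5 of the 32285 genes in the deposited matrices. They were found by symbol, in barcodes with at least 500 unique molecular identifiers (UMIs, 1 per captured RNA molecule), at least 200 genes and at most 10% mitochondrial UMIs. The cells came from the large intestine of C57BL/6J mice that drank 1.5% dextran sulfate sodium (DSS), which injures the colon lining, for 7 days and then water for 3 days. All mice also received 250 µg of an antibody into the abdomen 3 times a week, and the labels tell the 3 groups apart by that antibody: rat IgG as isotype control, DATK32 or MECA-367. DATK32 is known to bind the α4β7 integrin of lymphocytes and MECA-367 its vessel ligand MAdCAM-1; the labels name MECA-367 as the vedolizumab surrogate and DATK32 as the ontamalimab surrogate, so the groups are called here by clone. Viable CD45+ lamina propria cells were sorted and made into 1 library of the 10x 3′ kit for each antibody, all sequenced in 1 lane, and how many mice a library pools is not given in the sources used here.

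CD200 is a membrane glycoprotein of the immunoglobulin superfamily that stands on vessel walls, neurons and some lymphocytes. It binds CD200R1, an inhibitory receptor whose cytoplasmic tail recruits the adaptor proteins DOK1 and DOK2. The mouse genome also carries activating relatives of CD200R1, encoded by Cd200r2, Cd200r3 and Cd200r4, which have a short tail and signal through the adaptor DAP12 (gene Tyrobp); whether these bind CD200 has been disputed.

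The filter kept 7367, 5852 and 5890 cells in rat IgG, DATK32 and MECA-367, with medians of 1469, 1524.5 and 1824.5 UMIs per cell. Between 7 and 11 kept barcodes occurred in both libraries of a pair. In spite of the CD45 sort, columnar epithelial cells made up 28.4% and stromal cells 18.0% of the kept cells. The libraries also differed in the cells they held: squamous epithelial cells numbered 230, 178 and 0 in rat IgG, DATK32 and MECA-367, and an unnamed cluster led by the pancreatic enzyme genes Ctrb1 and Prss2 had 33, 0 and 2 cells. Neutrophils made up 2.47%, 3.55% and 9.07% of the kept cells in the same order. The part of such differences in the results on MECA-367 was not tested. Levels are given as counts per 1000000 UMIs (CPM) over all cells of a class in a library, with exact Poisson 95% intervals in brackets. With 1 library per group these intervals and the other intervals given here cover counting error only, nothing measures the spread between mice, and no p-value was computed. The kit reads the 3′ end of each RNA, so CPM values are compared within a gene and not between genes. Sums over a class do not tell fewer expressing cells from less RNA per cell.

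The 5 genes share 1 region of chromosome 16 (GRCm38, GENCODE vM21). On the plus strand lie Cd200r1 at chr16:44765736-44794978, Cd200r4 at chr16:44811733-44839150, Cd200r2 at chr16:44867097-44915840 and Cd200r3 at chr16:44943678-44981380, a stretch of 216 kb. Cd200 lies 401 kb further on, at chr16:45382135-45409053 on the minus strand. No 50-base word in the last 500 bases of any member's protein-coding transcripts occurs in a transcript of another member, so a 3′ read of that length separates the genes. Cd200r2 overlaps the processed pseudogene Gm17928 on the same strand, and how such reads were assigned is not given in the sources used here.

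The receptor genes are known to be related by duplication, and the 250 bases before the RefSeq start (GRCm38.p6) hold a long shared stretch in 1 pair. The origin of that stretch was not tested. Entries for 4 of the 5 genes were matched. The windows of Cd200r3 and Cd200r4 align without a gap over 107 bases, of which 93 (86.9%) are identical, and the longest alignment in any other pair of the matched genes is 17 bases, with 1 gap. The pair is printed here to show that shared stretch, with the identical aligned bases in capitals, 5′ to 3′ on the plus strand. The Cd200r3 window is chr16:44943428-44943677 and the Cd200r4 window is chr16:44820478-44820727.
Cd200r3: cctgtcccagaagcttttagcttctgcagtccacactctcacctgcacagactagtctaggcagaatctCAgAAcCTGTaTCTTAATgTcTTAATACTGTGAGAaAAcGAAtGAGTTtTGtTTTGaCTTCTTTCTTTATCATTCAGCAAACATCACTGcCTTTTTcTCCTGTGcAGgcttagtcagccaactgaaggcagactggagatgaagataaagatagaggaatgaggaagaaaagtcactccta
Cd200r4: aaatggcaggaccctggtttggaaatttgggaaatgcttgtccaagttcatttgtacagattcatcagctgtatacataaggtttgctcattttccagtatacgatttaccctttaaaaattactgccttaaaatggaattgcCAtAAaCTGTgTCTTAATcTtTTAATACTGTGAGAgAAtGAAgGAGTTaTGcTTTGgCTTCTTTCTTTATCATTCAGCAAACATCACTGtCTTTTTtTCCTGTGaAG
The 2 windows differ in annotation. The Cd200r3 window lies outside all 10 GENCODE transcripts of its gene, whereas the Cd200r4 window lies inside an intron of 2 of the 3 transcripts of its gene and before the start of the third. In the Cd200r3 window the letters GATA occurred 4 times on either strand, against 1 time each in the windows of Cd200, Cd200r2 and Cd200r4. Of 32536 windows of that length, 53.4% hold GATA at least 1 time and 3.48% at least 4 times. Of 5 further words searched on both strands, GGGCGG was found 1 time in Cd200 (33.0% of windows hold it), CACNTG 1 time each in Cd200 and Cd200r3 (39.5%), TGTGGT 1 time in Cd200r2 (14.0%), TCACACC 1 time in Cd200r2 (3.33%) and CAGGAAG in none of the 4 (10.8%). The searches can overlap one another and a match is a match of letters only.

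The ligand and the receptors had their largest UMI counts in different classes. Cd200 had 1384 UMIs in the kept cells, of which 30.0% came from blood endothelial cells, a class that holds 1.62% of the cells. Stromal cells held another 24.9% of the Cd200 UMIs, and columnar epithelial cells, with 43.2% of all UMIs, held 12.2%. The receptor genes were sparse. Cd200r4 had 272 UMIs, 57.4% of them in T cells and 21.7% in NK cells or ILC1 (the 2 could not be separated by markers), classes with 5.38% and 2.38% of all UMIs. Cd200r1 had 190 UMIs, with 39.5% in T cells, 14.7% in monocytes and macrophages and 11.1% in ILC2, the type 2 innate lymphoid cells. These classes held 5.38%, 6.28% and 0.497% of all UMIs. Cd200r2 had 211 UMIs, of which 56.4% lay in columnar epithelial cells, which hold 43.2% of all UMIs, and 24.2% in T cells. Cd200r3 had only 26 UMIs, and 7 of them lay in the 47 basophils or mast cells.

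**Figure D1:**
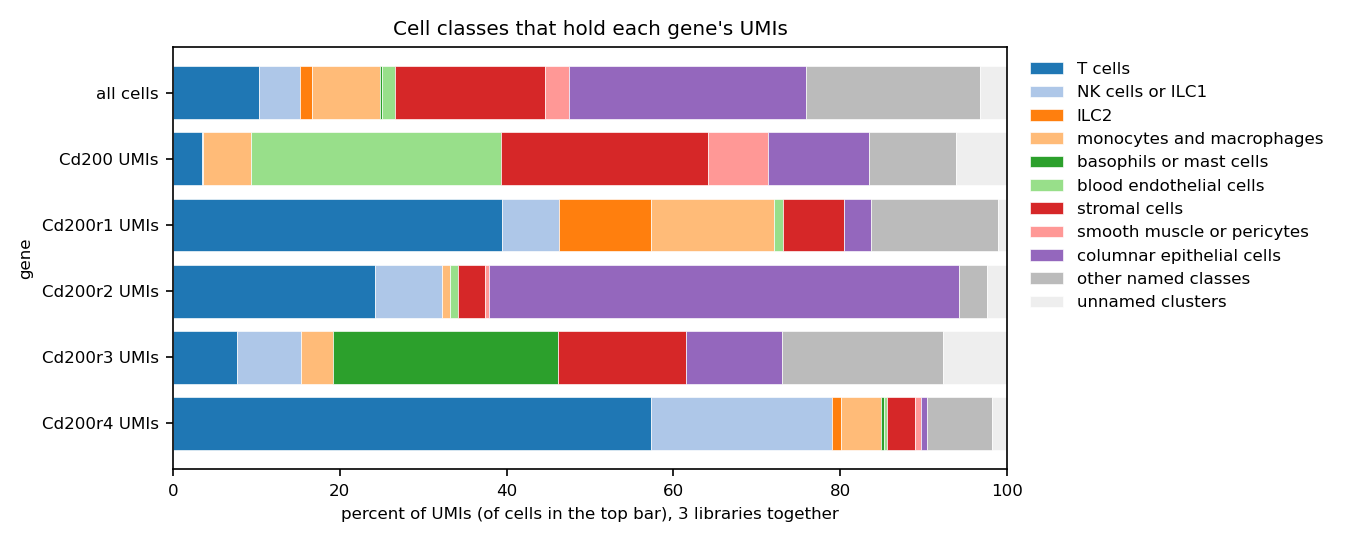
Share of each gene's UMIs held by each cell class, in percent, with the 3 libraries together and the share of all kept cells in the top bar. Blood endothelial cells take 30.0% of Cd200 UMIs with 1.62% of the cells, and T cells take 57.4% of Cd200r4 UMIs.

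Endothelial cells had the highest Cd200 level of any named class in each library. The class is led by Plvap, Flt1, Egfl7 and Cdh5, genes of vessel walls, and Ptprc (CD45) stood at 134, 84.3 and 67.3 CPM in it in rat IgG, DATK32 and MECA-367, against 1152, 956 and 944 CPM in T cells. Cd200 was at 873 CPM [733 to 1032] in 107 endothelial cells of rat IgG. In DATK32 (101 cells) it was at 632 CPM [517 to 766], and in MECA-367 (102 cells) at 776 CPM [665 to 901]. DATK32 was the lowest and rat IgG the highest, with overlapping intervals. A Cd200 UMI was found in 203 of the 310 endothelial cells (65.5%), at a median depth that ran from 931 UMIs in rat IgG to 1461 in MECA-367. After every cell was thinned to 500 UMIs the shares were 43.0%, 34.7% and 42.2% in rat IgG, DATK32 and MECA-367. In NK cells or ILC1, a class with little Cd200, 2 of 951 cells (0.21%) had a UMI.

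Cd200 was found across vessel types. Endothelial cells were grouped by a UMI of genes known from capillaries (Rgcc, Cd36 or Gpihbp1), veins (Ackr1, Selp, Vwf or Madcam1) or arteries (Gja5, Gja4, Sema3g or Hey1), and a cell can be in more than 1 group. In the capillary group Cd200 was at 811, 654 and 782 CPM in rat IgG, DATK32 and MECA-367. In the venous group it was at 737, 572 and 701 CPM, and in the arterial group at 645, 449 and 595 CPM. The arterial group was the lowest of the 3 in each library, and DATK32 the lowest library in each group. These orders are not independent of one another, since the groups share cells. A marker UMI is found more readily in deep cells, and depth was not matched between the groups. Madcam1, the gene of the protein that MECA-367 binds, was found in 12, 7 and 3 endothelial cells of rat IgG, DATK32 and MECA-367. In those cells Cd200 was at 402, 391 and 1231 CPM, from 14, 8 and 12 UMIs. Genes of lymphatic vessels (Lyve1, Prox1, Mmrn1 or Ccl21a) were found in 16 endothelial cells, where Cd200 was at 879 CPM over the 3 libraries together.

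**Figure D2:**
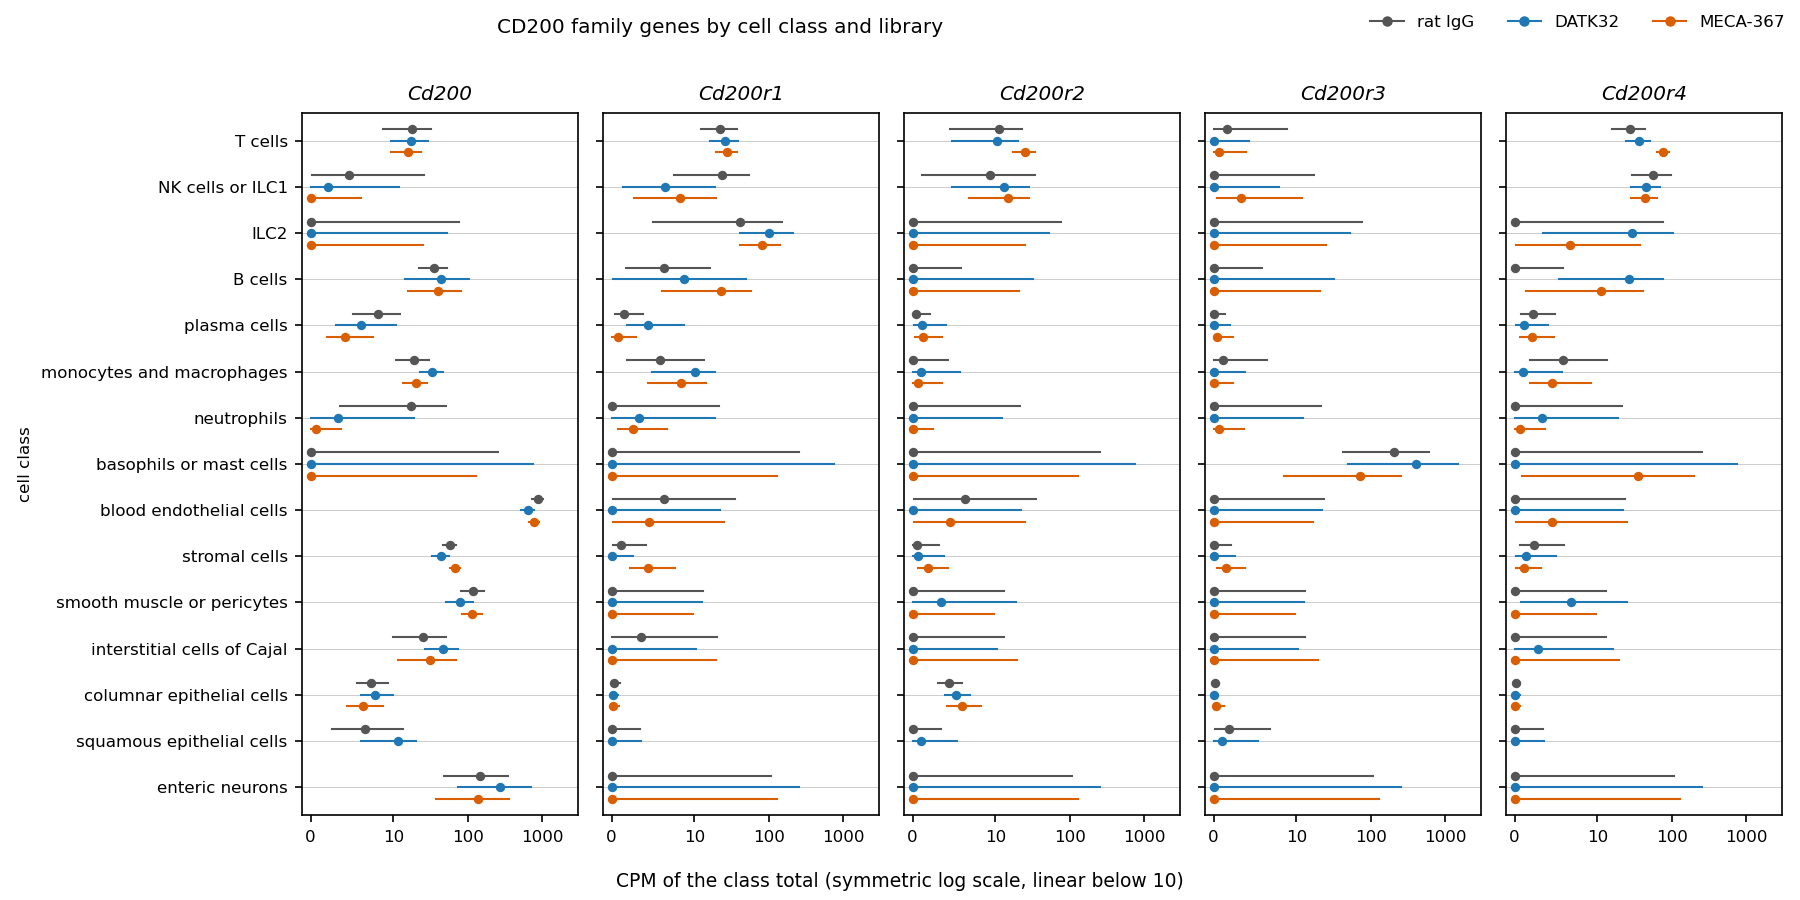
Level of each gene by cell class (CPM of the class total, symmetric log axis that is linear below 10), 1 point per library with its exact Poisson 95% interval. Cd200 is highest in blood endothelial cells (632 to 873 CPM), whereas the points of Cd200r4 are highest in T cells and in NK cells or ILC1, with wide intervals in small classes.

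Stromal Cd200 lay mostly in 1 of 3 stromal clusters. The cluster led by Ogn, Rbp4 and Bmp5, of which Bmp5 encodes a bone morphogenetic protein, had 169, 153 and 232 CPM in rat IgG, DATK32 and MECA-367. Another, led by Lum, which encodes the matrix protein lumican, had 39.0, 37.9 and 27.8 CPM. The remaining stromal cluster, led by C4b and Adamdec1, had 15.1, 10.5 and 18.6 CPM. The order of these clusters was the same in each library, and the intervals of the first did not touch those of the others. Over all stromal cells of rat IgG, DATK32 and MECA-367 Cd200 was at 57.2 CPM [46.4 to 69.7], 43.4 CPM [33.3 to 55.5] and 67.2 CPM [57.8 to 77.6]. The clusters' sizes differed between libraries: the Ogn cluster had 249, 120 and 276 cells, and the largest stromal cluster was that of Lum in rat IgG and DATK32 and that of Adamdec1 in MECA-367.

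Among the contractile cells, Cd200 was at 106, 76.1 and 100.2 CPM in the smooth muscle cluster (Tagln, Actg2, Myh11) of rat IgG, DATK32 and MECA-367. A cluster of 88 cells led by Pln, Rgs4 and Notch3, which are known from pericytes and other mural cells, had 159, 96.5 and 210 CPM. An unnamed cluster of 24 cells led by Gpm6a and holding Msln, Upk3b and Wt1 among its 10 leading genes, genes known from mesothelium, had 707, 711 and 423 CPM from 15, 16 and 6 UMIs. Enteric neurons, 17 cells in all, had 146, 271 and 139 CPM from 5, 4 and 4 UMIs. Intervals within each of these groups overlapped across the 3 libraries.

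**Figure D3:**
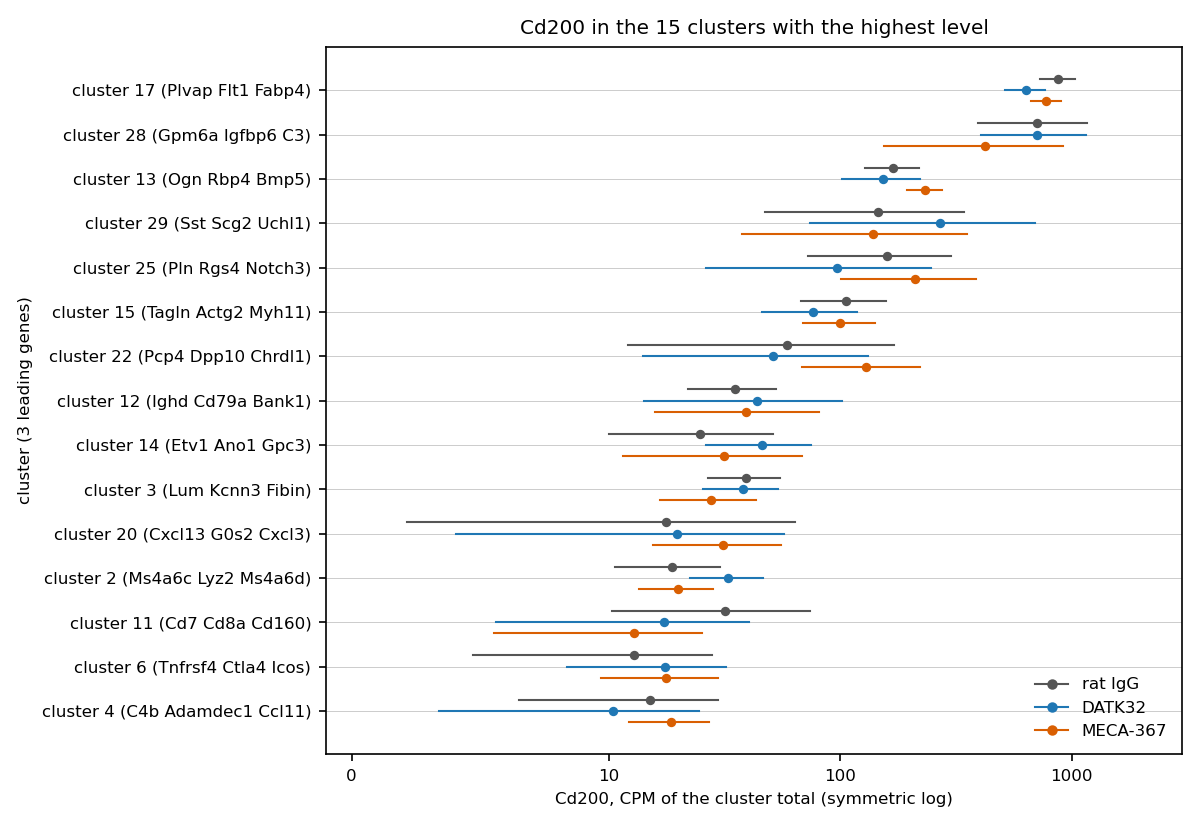
Cd200 level (CPM of the cluster total, symmetric log axis that is linear below 10) in the 15 clusters with the highest level over the 3 libraries together, 1 point per library with its exact Poisson 95% interval. The endothelial cluster (Plvap, Flt1, Fabp4) and the Gpm6a cluster stand above the stromal and muscle clusters, whose points lie between 10.5 and 232 CPM.

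Immune cells held less Cd200. B cells had 35.0, 43.7 and 39.4 CPM in rat IgG, DATK32 and MECA-367, from 22, 5 and 7 UMIs. T cells had 17.6, 17.4 and 15.6 CPM, close to one another beside intervals that span 8.79 to 31.5. No UMI was found in 278 ILC2, which allows a share of up to 1.08% of cells with a captured UMI and does not limit the share of expressing cells. Monocytes and macrophages had 18.7 CPM [10.7 to 30.4], 32.9 CPM [22.5 to 46.5] and 19.9 CPM [13.5 to 28.3] in the same order. Within that class 24 of its 79 Cd200 UMIs lay in a sub-cluster of 143 cells led by Pkib, Klrk1, Ccr7 and Cst3, of which Ccr7 is the receptor that guides dendritic cells to lymph nodes. It had 63.6, 148 and 124 CPM and has no name, since its best marker list, that of conventional dendritic cells, scored just under the limit. A sub-cluster of 30 cells led by Arg1, Cxcl3 and Pdpn had 55.8, 304 and 194 CPM from 1, 5 and 5 UMIs. The sub-clusters named inflammatory monocytes and C1q macrophages had 2 UMIs each.

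Cd200r1, the inhibitory receptor gene, had more of its UMIs in lymphoid classes than in myeloid ones. In ILC2 of rat IgG it was at 40.9 CPM [4.95 to 148] from 2 UMIs, in those of DATK32 at 101 CPM [40.5 to 207] from 7, and in those of MECA-367 at 80.4 CPM [41.5 to 140.5] from 12. In T cells it was at 22.4, 25.5 and 27.6 CPM in the same order, with intervals within 12.2 to 38.7. The T cell levels differed by less than their counting error, as did those of ILC2. NK cells or ILC1 had 23.2, 6.45 and 8.27 CPM, from 5, 3 and 5 UMIs. A Cd200r1 UMI was found in 7.55% of ILC2 and 3.62% of T cells, against 0.11% of columnar epithelial cells, at median depths of 838.5 UMIs in ILC2 and 3281 in the epithelium. T cells with a UMI of Tyrobp or Fcer1g, the genes of DAP12 and of the Fc receptor gamma chain, had 39.1, 44.1 and 43.9 CPM of Cd200r1. T cells without such a UMI had 18.1, 15.9 and 14.2 CPM.

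The share of Cd200r1 UMIs in monocytes and macrophages, 14.7%, was below that of T cells and above that of ILC2, and its source was mixed. Monocytes and macrophages held 28 Cd200r1 UMIs, at 5.84, 10.3 and 8.35 CPM in rat IgG, DATK32 and MECA-367. Of these, 18 lay in a sub-cluster of 260 cells whose leading genes include Tnfrsf18, Il2rb and the T cell receptor gene Trbc2. Whether these cells are doublets of T cells and macrophages was not tested. The inflammatory monocyte sub-cluster had 0 UMIs in 157 cells and the C1q macrophage sub-cluster 1 UMI in 63 cells. Neutrophils held 5 UMIs in 924 cells. At this depth a low level of Cd200r1 in single myeloid cells was not detectable. DOK2 and DOK1 act below CD200R1: in monocytes and macrophages Dok2 was at 39.7, 42.2 and 54.6 CPM and Dok1 at 17.5, 12.3 and 17.3 CPM, and in T cells Dok2 was at 52.8, 36.0 and 47.4 CPM.

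Cd200r4, an activating member, had most of its counts in T cells and in NK cells or ILC1. In T cells of rat IgG, DATK32 and MECA-367 it was at 27.2 CPM [15.8 to 43.6], 36.0 CPM [24.5 to 51.1] and 76.4 CPM [62.6 to 92.2], from 17, 31 and 108 UMIs. MECA-367 was the highest of the 3 and its interval did not touch the others. In NK cells or ILC1 it was at 55.8 CPM [28.8 to 97.4], 45.2 [28.0 to 69.1] and 43.0 [28.1 to 63.0], with no such gap. With no mitochondrial limit or with classes from marker scores, rat IgG was the lowest library for NK cells or ILC1, at 23.0 and 19.4 CPM. A UMI was found in 2.91%, 4.32% and 11.6% of T cells, at median depths of 771, 969 and 1278 UMIs, and after thinning to 500 UMIs in 2.05%, 2.88% and 5.05%. In columnar epithelial cells, 2 of 5426 cells (0.0369%) had a UMI at a median depth of 3281.

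The 2 T cell clusters differed in Cd200r4. The cluster led by Cd7, Cd8a and Cd160 had 63.4, 86.7 and 155 CPM in rat IgG, DATK32 and MECA-367. The other cluster, led by Tnfrsf4, Ctla4 and Icos, genes of activated and regulatory T cells, held 7, 6 and 11 UMIs, 13.1 CPM over the 3 libraries. The higher level in MECA-367 lay in the first cluster, which held 166 of 585, 244 of 625 and 366 of 753 T cells. A UMI of Cd4, the helper T cell co-receptor, was found in 128 T cells, and these held 2 Cd200r4 UMIs. T cells with a UMI of Foxp3, the regulatory T cell factor, numbered 137 and held 1. T cells with a UMI of Trdc, the constant segment of the delta T cell receptor, had 71.9, 42.1 and 190.4 CPM.

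A small cytotoxic T sub-cluster, led by Gzma, Tyrobp and Ccl5, carried the highest levels of both Cd200r4 and Cd200r2. Gzma encodes a granule protease and Ccl5 a chemokine of killer lymphocytes. The sub-cluster held 13 of 585 T cells in rat IgG (2.22% [1.19 to 3.77], exact binomial interval). In DATK32 these were 22 of 625 (3.52% [2.22 to 5.28]), and in MECA-367 63 of 753 (8.37% [6.49 to 10.6]). Cd200r4 in these cells was at 207 CPM [25.1 to 748], 130.3 CPM [26.9 to 381] and 531 CPM [393 to 702] in the same order, from 2, 3 and 49 UMIs. The MECA-367 interval lay above that of DATK32 and overlapped that of rat IgG. Over the 3 libraries 36 of the 98 cells had a Cd200r4 UMI. The gene was not used for clustering but is among the 10 leading genes of this sub-cluster.

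Cells of the cytotoxic sub-cluster had the T cell receptor gene Trac at 207, 391 and 336 CPM, against 429, 480 and 422 in other T cells and 102, 179 and 141 in NK cells or ILC1. Trdc was at 621, 261 and 445 CPM in it and at 91.0, 111 and 104 CPM in other T cells. Cd8a was at 310.4, 565 and 445 CPM and Cd8b1, the partner chain of CD8αβ, at 0, 0 and 21.7 CPM. Tyrobp, a leading gene of the sub-cluster, was at 1035, 738 and 1041 CPM, against 79.6, 109.8 and 144 CPM in other T cells and 804, 813 and 817 CPM in NK cells or ILC1. The sub-cluster was formed from gene levels of these same cells, so the levels describe it and are no separate result.

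Outside the sub-cluster the order of the libraries held at lower levels. There Cd200r4 was at 24.4 CPM [13.6 to 40.2], 33.4 CPM [22.2 to 48.3] and 44.6 CPM [34.0 to 57.6] in rat IgG, DATK32 and MECA-367, with overlapping intervals. An unnamed sub-cluster of 234 T cells led by Kit, Xcl1 and Adora2a had 78.3, 69.8 and 94.6 CPM, and it too was largest in MECA-367, with 31, 47 and 156 cells. Regulatory T cells, named from Foxp3 and related markers, held 1 UMI in 237 cells. T cells with a UMI of a granule gene (Gzma, Gzmb, Gzmk or Prf1) had 28.8, 29.6 and 126 CPM of Cd200r4, and T cells without had 26.8, 38.9 and 52.4 CPM. T cells with a UMI of Tyrobp or Fcer1g had 62.5, 77.9 and 136 CPM, and T cells without had 18.1, 14.1 and 27.0 CPM.

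**Figure D4:**
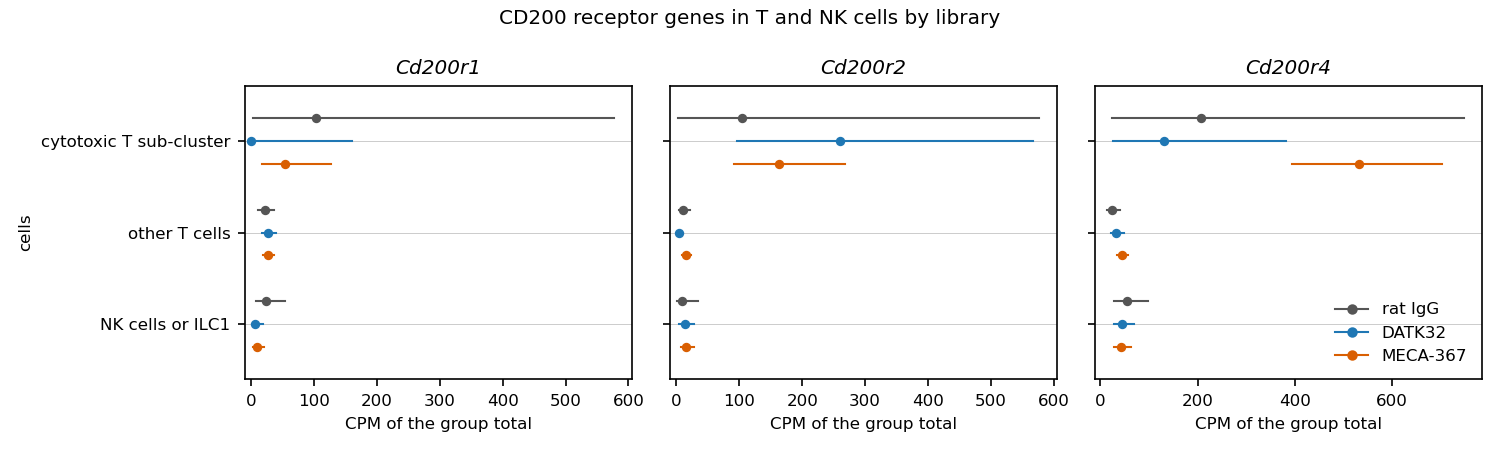
Levels of Cd200r1, Cd200r2 and Cd200r4 (CPM of the group total, linear axes that differ between panels) in the cytotoxic T sub-cluster, the other T cells and NK cells or ILC1, 1 point per library with its exact Poisson 95% interval. Cd200r4 in the cytotoxic sub-cluster of MECA-367 stands at 531 CPM, and the intervals of the 13 and 22 cells of rat IgG and DATK32 are wide.

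Cd200r2, a further activating member, had 22 of its 51 T cell UMIs in the same sub-cluster. There it was at 103, 261 and 163 CPM in rat IgG, DATK32 and MECA-367, from 1, 6 and 15 UMIs, with overlapping intervals. In other T cells it was at 9.75, 3.58 and 15.1 CPM. Over all T cells it was at 11.2 CPM [4.50 to 23.1], 10.4 [4.78 to 19.8] and 24.7 [17.2 to 34.4], and NK cells or ILC1 had 9.29, 12.9 and 14.9 CPM. Cd200r2 and Cd200r4 were found together in 15 T cells, of the 46 and 131 that had each, and 14 of the 15 were in MECA-367. That library also held 33 of the 46 and 87 of the 131. Its T cells were the deepest, at a median of 1278 UMIs against 771 in rat IgG and 969 in DATK32. Depth was not matched for this count. Of the 15 cells with both genes, 10 lay in the cytotoxic sub-cluster. Cd200r1 and Cd200r4 were found together in 11 T cells.

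In the columnar epithelium the level of Cd200r2 was below that of T cells in each library. The T cell level rests on only 7 and 9 UMIs in rat IgG and DATK32. Nearly all epithelial UMIs of Cd200r2 lay in 1 cluster, whose level was above the 10.4 CPM of T cells in DATK32 only. An epithelial cluster led by Muc2, Spink4 and Agr2, genes of mucus-making goblet cells, held 109 of the 119 epithelial UMIs, at 9.32, 11.7 and 14.2 CPM in the order given. A UMI was found in 6.06% of its 1651 cells, at a median depth of 5021. Another epithelial cluster, led by Gm5485, Tm4sf20 and Dmbt1, had 4 UMIs in 1645 cells at a median depth of 4318. Thinned to 500 UMIs, the share in the Muc2 cluster fell to 0.545%, so most cells with a UMI were found only at greater depth. Over all columnar epithelial cells the thinned shares were 0.0455%, 0.303% and 0.321% in rat IgG, DATK32 and MECA-367. Over all columnar epithelial cells the level was 4.34, 5.26 and 5.98 CPM, with overlapping intervals. Cd200 itself was at 7.28, 7.83 and 6.32 CPM in the epithelium, and 11 epithelial cells had UMIs of both genes, of 160 with Cd200 and 110 with Cd200r2.

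Cd200r3, which is known from basophils and mast cells, followed that pattern as far as 26 UMIs can show. Its cluster, led by Mcpt2, Ccl3 and Il4, had 13, 6 and 28 cells in rat IgG, DATK32 and MECA-367 and is called basophils or mast cells, since the marker lists of both fit it. Cd200r3 was at 204, 403 and 70.5 CPM in it, from 3, 2 and 2 UMIs, with overlapping intervals. The makeup of the cluster differed between the libraries: Mcpt8, a basophil protease gene, was at 1832, 1210 and 352 CPM, and Mcpt2, a mucosal mast cell protease gene, at 15067, 202 and 951 CPM. Over the 3 libraries 7 of the 47 cells had a Cd200r3 UMI (14.9%). The other 19 UMIs were spread over the other classes, with at most 4 in any of them.

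Ratios between libraries were taken for pairs of a gene and a class with at least 50 UMIs over the 3 libraries and at least 100 cells in each, which left 10 pairs. A ratio was called when the fold was at least 1.5 and the Poisson intervals were apart; 1 count was added to each side before the log2. The comparisons against rat IgG share that library, so their values are given side by side. For DATK32 against rat IgG, 0 of the 10 pairs were called. The share of all measured genes called in that comparison ran from 1.85% in T cells through 2.12% in columnar epithelial cells, 2.34% in NK cells or ILC1, 2.8% in monocytes and macrophages, 2.89% in stromal cells and 3.36% in smooth muscle or pericytes to 4.06% in endothelial cells. For MECA-367 against rat IgG, 1 pair was called, Cd200r4 in T cells. The shares of all measured genes were 5.03% in the epithelium, 5.23% in NK cells or ILC1, 6.21% in smooth muscle or pericytes, 8.2% in T cells, 8.65% in endothelial cells, 8.85% in monocytes and macrophages and 11.7% in stromal cells. For DATK32 against MECA-367, 2 pairs were called, Cd200r4 in T cells and Cd200 in stromal cells. The shares there were 3.07% in the epithelium, 4.43% in NK cells or ILC1, 6.14% in monocytes and macrophages, 6.38% in T cells, 7.01% in smooth muscle or pericytes, 7.31% in endothelial cells and 8.85% in stromal cells. These shares move with the minimum count: for MECA-367 against rat IgG in T cells they were 6.35% at 10 counts and 12.9% at 200 counts, and in endothelial cells 3.30% and 19.1%. With so few pairs, nothing is read from a count of 1 or 2 beside them.

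The log2 ratio of Cd200r4 in T cells was 1.42 [0.74 to 2.32] for MECA-367 against rat IgG, 0.37 [-0.49 to 1.35] for DATK32 against rat IgG and -1.05 [-1.71 to -0.50] for DATK32 against MECA-367. The brackets hold the exact interval of the ratio of counts. The pair of Cd200r4 and T cells had 17, 31 and 108 UMIs in rat IgG, DATK32 and MECA-367. It passed the minimum of 50 UMIs only through MECA-367, where it was highest. Since the T cell values of Cd200r4 were also known when the genes were chosen, these ratios are descriptions. Without the cytotoxic sub-cluster the ratio of MECA-367 to rat IgG was 0.80 and that of DATK32 to MECA-367 was -0.39, and neither was called. With T cells and NK cells or ILC1 pooled they were 0.91 and -0.74, and both were called. With coarser clustering, at resolution 0.5, most cells with cytotoxic genes left the T cell class for a cluster shared with NK cells, and the remaining T cells held only 3, 3 and 9 Cd200r4 UMIs in rat IgG, DATK32 and MECA-367. The ratios there, 0.25 and -0.79, were not called, but the counts are under the minimum of 50. The depth of T cells and the share of the cytotoxic sub-cluster moved with the level of Cd200r4, both being highest in MECA-367. The share of T cells with over 0.5% epithelial marker UMIs moved the other way, at 6.15%, 4.0% and 1.59% in rat IgG, DATK32 and MECA-367. With only cells of at least 1000 UMIs and 500 genes the ratios were 1.51, called, and -0.77, not called. Without the T cells over the epithelial limit they were 1.23 and -0.91, both called. Without the T sub-clusters led by genes of other cell types they were 1.20 and -0.82, both called.

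**Figure D5:**
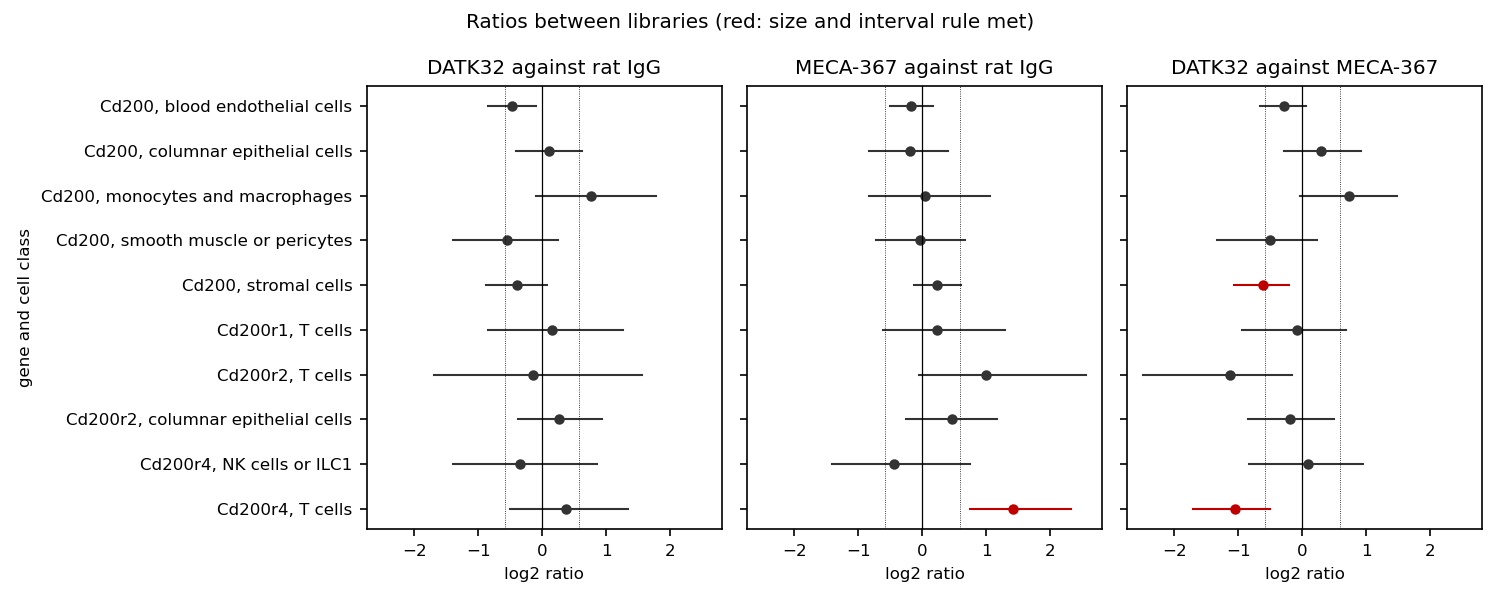
Log2 ratios between libraries of the 10 pairs of gene and class with enough counts, with the exact 95% interval of the ratio of counts; dotted lines mark a fold of 1.5 either way. Red points met the size and interval rule: Cd200r4 in T cells (1.42 for MECA-367 against rat IgG, -1.05 for DATK32 against MECA-367) and Cd200 in stromal cells (-0.62 for DATK32 against MECA-367).

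The other ratios were smaller or less certain. Cd200 in endothelial cells had log2 ratios of -0.46 [-0.85 to -0.09] for DATK32 against rat IgG, -0.17 [-0.50 to 0.16] for MECA-367 against rat IgG and -0.29 [-0.66 to 0.06] between the antibodies, and none was called. Cd200 in stromal cells was lower in DATK32 than in MECA-367 by a log2 ratio of -0.62 [-1.07 to -0.21]. That call was lost under 7 alternative settings, with ratios from -0.57 to -0.31, and the stromal clusters' sizes differed between these libraries as given above. The pair of Cd200r2 and T cells passed the minimum of 50 UMIs with 51, from 7, 9 and 35 UMIs, and only through MECA-367, where it was highest. It had 0.99 [-0.05 to 2.56] for MECA-367 against rat IgG and -1.13 [-2.49 to -0.16] for DATK32 against MECA-367. Cd200r1 in T cells stayed between -0.08 and 0.24 in the 3 comparisons, and Cd200r4 in NK cells or ILC1 between -0.44 and 0.08. For the latter, MECA-367 against rat IgG turned to 0.64 with no mitochondrial limit and to 0.95 with classes from marker scores, neither called.

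Genes around the receptors were counted from lists, chosen with earlier results of these data known, by the same rule. In T cells the rule called 0.621% of all measured genes higher and 1.22% lower for DATK32 against rat IgG, 3.2% higher and 5% lower for MECA-367 against rat IgG, and 3.72% higher and 2.66% lower for DATK32 against MECA-367. Of the inhibitory signalling list (Dok1, Dok2, Inpp5d, Ptpn6 and others), 9 of 10 genes were measured in T cells. None of them was called for MECA-367 against rat IgG, where their median log2 ratio was -0.09 beside -0.08 over all measured genes. For DATK32 against rat IgG 1 was lower, Rasa1 at -1.49, a Ras-GTPase activating protein that DOK proteins bind. Of the activating adaptor list, 6 of 9 genes were measured in T cells, and 2 were higher in MECA-367 than in rat IgG: Tyrobp at 1.08 and Fcer1g at 1.13. The median of the 6 was 0.14. The same 2 genes were called higher in plasma cells in that comparison, at 2.69% of genes called higher there. In T cells the same 2 were lower in DATK32 than in MECA-367, at -0.67 and -0.73, and for DATK32 against rat IgG none of the 6 was called.

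Of the cytotoxic list, 8 of 10 genes were measured in T cells. For MECA-367 against rat IgG 5 were higher: Gzma at 1.49, Klrk1 (the receptor NKG2D) at 1.28, Gzmb at 1.16, Nkg7 at 0.62 and Ccl5 at 0.60, with a median of 0.64 over the 8. The list was also higher in classes not known for these genes: 5 of 7 measured genes in plasma cells (Gzma, Gzmb, Nkg7, Ccl4 and Klrk1, median 1.02) and 4 of 7 in stromal cells (Gzma, Gzmb, Ccl5 and Ccl4, median 0.90), where 3.84% of genes were called higher. In monocytes and macrophages it was 1 of 7, Gzma, beside 2.85% of genes called higher. Gzma was at 21.1, 19.3 and 84.3 CPM in plasma cells and at 23.3, 27.5 and 86.3 CPM in stromal cells of rat IgG, DATK32 and MECA-367, and the part of free RNA in the T cell values was not tested. For DATK32 against rat IgG 2 were higher, Klrk1 at 1.03 and Gzmb at 0.93. In NK cells or ILC1, 6 of 9 measured cytotoxic genes were higher in MECA-367 than in rat IgG, with a median of 1.02 and a background of 2.03% of genes called higher, while the log2 ratio of Cd200r4 there was -0.44, or 0.64 and 0.95 in the settings given above. Of 11 measured genes for other inhibitory receptors in T cells, Lilrb4a, an inhibitory immunoglobulin-like receptor gene, was higher than in rat IgG in both antibody libraries, at 1.02 in DATK32 and 0.88 in MECA-367. Of 9 measured genes for other inhibitory ligands in T cells, Cd47 was higher (0.68) and Cd24a lower (-2.26) in MECA-367 than in rat IgG. Cd24a was also called lower in that comparison in NK cells or ILC1, monocytes and macrophages, plasma cells and stromal cells. The shares of genes called lower in these classes were 3.2%, 6%, 9.41% and 7.89%, and the cause was not tested. Of 7 inhibitory ligand genes measured in endothelial cells, none was called in the 3 comparisons. Of 9 genes listed as regulators of Cd200, none was called in T cells or, with 3 measured, in endothelial cells. Irf1 was higher in MECA-367 than in rat IgG in stromal cells, smooth muscle or pericytes and columnar epithelial cells. There 3.84%, 3.27% and 2.13% of genes were called higher. In the first 2 it was lower in DATK32 than in MECA-367, and in the epithelium higher in DATK32 than in rat IgG. Bach2 was lower than in rat IgG in both antibody libraries in monocytes and macrophages. Relb was higher in DATK32 than in MECA-367 in neutrophils.

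The genes whose levels ran most like a member's were ranked over 30 units, 10 classes in each of 3 libraries, which share their depth and make-up within a library. For Cd200 these were Plekhg2 (Spearman's rho 0.92), Phactr2 (0.91), Msrb3 (0.91), Nrp1 (0.90) and Spop (0.90). For Cd200r4 they were Gpr55 (0.83), Cd8b1 (0.79), Gzmb (0.78), Fcho1 (0.78) and Prf1 (0.78). For Cd200r2 they were Cenpk (0.87), Nrbf2 (0.81), Mcm7 (0.80), Phrf1 (0.80) and Dbf4 (0.79). Ranked by Pearson's correlation of log2 values, 0, 0 and 2 of the 5 genes were named again for Cd200, Cd200r4 and Cd200r2. The counts of Cd200r1 and Cd200r3 in these units were too few for a ranking.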

How the data were processed

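The 3 libraries of colonic cells hold 1 sample each, 1 per antibody. The deposited values are whole UMI counts for each gene in each barcode, not normalized; per the submitters' processing notes the authors used Cell Ranger 6.0.2 and build mm10, while the annotation, the strand setting and the cell filter are not given in the sources used here. Total counts were 18109793, 17450259 and 18357517 UMIs in the kept cells of rat IgG, DATK32 and MECA-367, and the mitochondrial limit alone removed 31.9%, 30.7% and 29.6% of the deposited barcodes. Cells were clustered with scanpy 1.11.5 and igraph 0.11.9 (2000 variable genes without the 5 members, 30 components, 15 neighbours, resolution 1.0) into 30 clusters, 6 of them unnamed. A cluster took the class of its best marker list, if that score reached 0.5, led the next list by 0.3 and was well above it, with at least 3 markers in 5% of cells, limits set after the data were seen. T cells and myeloid cells were clustered again with 20 components. Scrublet's own threshold marked 1 cell, so doublets remain in the main analysis. UMIs were summed per class and library. The size of the ratios was checked on simulated Poisson counts. These hold no spread between mice or libraries, so they cannot test the calls against it. Sums scaled with edgeR 4.0.16 (TMM) and DESeq2 1.42.0 (size factors) served as alternatives, with no count model fitted. Members, lists and comparisons were chosen with earlier results of these data known. All 5 members are described; of each list, genes called in a comparison or with the most counts may be named, and for members with at least 200 counts the 5 genes with the highest Spearman correlation. Sequences come from RefSeq (GRCm38.p6). The vessel groups, the Tyrobp or Fcer1g groups, and the alternatives without the cytotoxic sub-cluster, without sub-clusters led by genes of other cell types, and with T cells and NK cells or ILC1 pooled were chosen after seeing the data.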

Additional observations from a re-analysis of the deposited data

How the results depend on the processing

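Level values were tallied together with the shares of cells with a UMI at 1000 UMIs or without thinning. Of these, 270 stayed within the counting interval of the main value under the alternatives and 48 did not. Ratios were tallied together with the number of pairs called in each setting. The call, or that number to within a fold of 1.5, was kept in 123 cases for DATK32 against rat IgG. It was kept in 119 cases for MECA-367 against rat IgG and in 107 between the antibodies. The cause of the changes was not tested unless stated. For Cd200r4 in T cells, MECA-367 against rat IgG was not called at clustering resolution 0.5 (0.25), where cytotoxic cells left the class and 3, 3 and 9 UMIs remained, nor without the cytotoxic sub-cluster (0.80), an alternative chosen after seeing the data. DATK32 against MECA-367 was not called there (-0.79 and -0.39) nor with at least 1000 UMIs and 500 genes (-0.77). Cd200 in smooth muscle or pericytes, MECA-367 against rat IgG, went from -0.04 to 0.89 with no mitochondrial limit, which made 2 pairs called. Cd200 in stromal cells, DATK32 against MECA-367, was not called with a 5% limit (-0.31), no limit (-0.53), 1000 UMIs (-0.57), doublets removed (-0.56), resolution 0.5 (-0.36) or 2.0 (-0.35) or marker classes (-0.49). The called pairs there were 1 with a 5% limit, no limit, doublets removed, resolution 2.0 or marker classes, and 0 with 1000 UMIs.

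Cd200 in endothelial cells was at 732 and 516 CPM in rat IgG and DATK32 with 1000 UMIs, 1040.3 in rat IgG with doublets removed, and 1148, 863 and 939 as a mean over cells. At resolution 0.5, T cells had Cd200r1 at 11.6 in DATK32 and 13.3 in MECA-367, Cd200r2 at 2.79, 0 and 2.66, and Cd200r4 at 8.38, 5.78 and 11.99 CPM. Without the cytotoxic sub-cluster Cd200r2 was at 3.58 in DATK32 and 15.1 in MECA-367, and Cd200r4 at 44.6 in MECA-367; as a mean over cells the last was 99.0. Cd200r3 in basophils or mast cells was at 11.2 and 9.41 CPM in rat IgG and DATK32 with no mitochondrial limit and 24.9 and 32.6 with marker classes. Cd200r4 in NK cells or ILC1 of rat IgG was at 23.0 and 19.4 CPM in the same settings. Background shares of genes called moved in 19 cases and not in 23 with a minimum of 10 or 200 counts. With Pearson's correlation 0 of 5 similar genes were named again for Cd200, 2 for Cd200r2 and 0 for Cd200r4. No paired analysis was possible because each group is 1 library. Depth limits the receptor genes most: Cd200r3 had 26 UMIs, and intervals cover counting error only.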
